A study of Mus musculus with 10 samples.

Results

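The renin-angiotensin-aldosterone genes described here are Agt, Ace, Agtr1a, Agtrap, Atp6ap2, Nr3c2 and Nr3c1. They were found by their symbols in the deposited count table and are 7 of its 55385 genes; all 7 passed the filter on low counts, which kept 18491 genes. The samples are left ventricles of mice labelled C56Bl6, sequenced as 2 groups of 5 RNA libraries each. HFpEF mice were given High-Fat + L-NAME over 6 weeks, and Control mice a standard diet over the same time. L-NAME inhibits nitric oxide synthases, and together with a high-fat diet it is used to model heart failure with preserved ejection fraction (HFpEF), in which the ventricle fills poorly although its pumping fraction is kept. The labels list no genetic change in either group, give neither sex nor age, and leave unsaid whether a library stands for a mouse of its own, so each p-value reflects the spread among libraries, which may be technical.

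In the renin-angiotensin system, renin cuts angiotensinogen, the product of Agt, and angiotensin-converting enzyme, the product of Ace, trims the fragment to angiotensin II. Angiotensin II acts through the AT1 receptor, encoded in mice by the paralogues Agtr1a and Agtr1b, and through the AT2 receptor, encoded by Agtr2. It raises vascular tone and makes the adrenal cortex release aldosterone, which binds the mineralocorticoid receptor Nr3c2. The glucocorticoid receptor Nr3c1 is the nearest relative of Nr3c2, and both bind corticosterone, the main glucocorticoid of mice. In the heart, Ace is best known from endothelium, AT1 receptors from mural cells, fibroblasts and cardiomyocytes, and both steroid receptors from most cell types. Blockers of the AT1 receptor, of Ace and of Nr3c2 are standard drugs in heart failure.

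Promoters of the first genes of the cascade are shown because Ace has a pair of annotated starts, which a count per gene adds together. Each sequence is from RefSeq (GRCm38.p6) and runs from 250 bases before to 50 after the start of transcription, 5′ to 3′ on the strand of the gene. Capitals mark TATAAA (the TATA box core), GGGCGG (a GC box, as bound by Sp1) and TGTTCT (a half-site of the element bound by steroid receptors such as Nr3c1 and Nr3c2), searched on both strands; neighbouring GGGCGG matches can overlap each other, and matches of different motifs did not overlap. The Agt promoter lies at chr8:124569657-124569956 on the minus strand. The main Ace promoter lies at chr11:105967698-105967997 on the plus strand, and start 2, which lies inside the gene and is known as the start of the testis form, at chr11:105974939-105975238.
Agt: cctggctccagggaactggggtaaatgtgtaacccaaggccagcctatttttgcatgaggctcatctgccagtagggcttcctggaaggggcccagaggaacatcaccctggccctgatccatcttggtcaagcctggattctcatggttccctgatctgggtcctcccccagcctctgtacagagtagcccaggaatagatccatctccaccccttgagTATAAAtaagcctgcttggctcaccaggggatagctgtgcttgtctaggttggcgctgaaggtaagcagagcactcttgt
Ace start 1: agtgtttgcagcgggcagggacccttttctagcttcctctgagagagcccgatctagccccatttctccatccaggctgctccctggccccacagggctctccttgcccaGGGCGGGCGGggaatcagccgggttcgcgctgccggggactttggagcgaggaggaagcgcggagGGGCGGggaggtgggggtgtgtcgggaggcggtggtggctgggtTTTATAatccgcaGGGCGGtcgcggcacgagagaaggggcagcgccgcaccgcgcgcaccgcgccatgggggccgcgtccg
Ace start 2: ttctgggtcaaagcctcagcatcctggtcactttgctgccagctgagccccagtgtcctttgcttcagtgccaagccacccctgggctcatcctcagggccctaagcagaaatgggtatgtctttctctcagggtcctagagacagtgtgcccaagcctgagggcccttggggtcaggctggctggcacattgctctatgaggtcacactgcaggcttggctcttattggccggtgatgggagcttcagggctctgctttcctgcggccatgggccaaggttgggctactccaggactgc
The Agt window holds 1 TATAAA and no match to the other motifs. Ace start 1 holds 4 GGGCGG and 1 TATAAA, the last on the opposite strand, and Ace start 2 holds none of the 3 motifs. Of 32851 RefSeq mouse promoters of this length, 13.6% hold TATAAA, 35.7% GGGCGG and 19.0% TGTTCT. Among the other members, the windows of Agtrap, Atp6ap2 and Nr3c2 hold 1, 2 and 3 GGGCGG matches, and that of Atp6ap2 also holds 1 TGTTCT. A match is a description of letters, and nothing on binding was measured here. Promoters of Agtr1a and Nr3c1 are not shown.

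None of the 7 genes passed the test between HFpEF and Control left ventricle. With edgeR's quasi-likelihood test and p-values adjusted over all genes by Benjamini and Hochberg, 0 of 7 passed an adjusted p of 0.05, against a background of 5.33% of the 18491 genes tested (3.24% higher and 2.09% lower in HFpEF). At an unadjusted p under 0.05, 1 of the 7 passed (Ace). The share of all genes at that level is not given here, but the edgeR p of Ace, 0.0322, ranked 3054 among the 18491 genes tested. Unadjusted p-values under 0.05 were therefore common over all genes, which also bears on such counts in the lists below. DESeq2 and limma voom each called 0 of the 7. The CPM ranges of the groups overlapped for each of the 7, whereas they did not overlap for 6.81% of all genes tested (3.88% with HFpEF above and 2.93% with HFpEF below). The log2 fold changes of HFpEF over Control ran from -0.15 (Ace) to 0.13 (Agt), with 3 genes above and 4 below 0, and their median was -0.08 beside -0.01 over all genes tested.

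**Figure D1:**
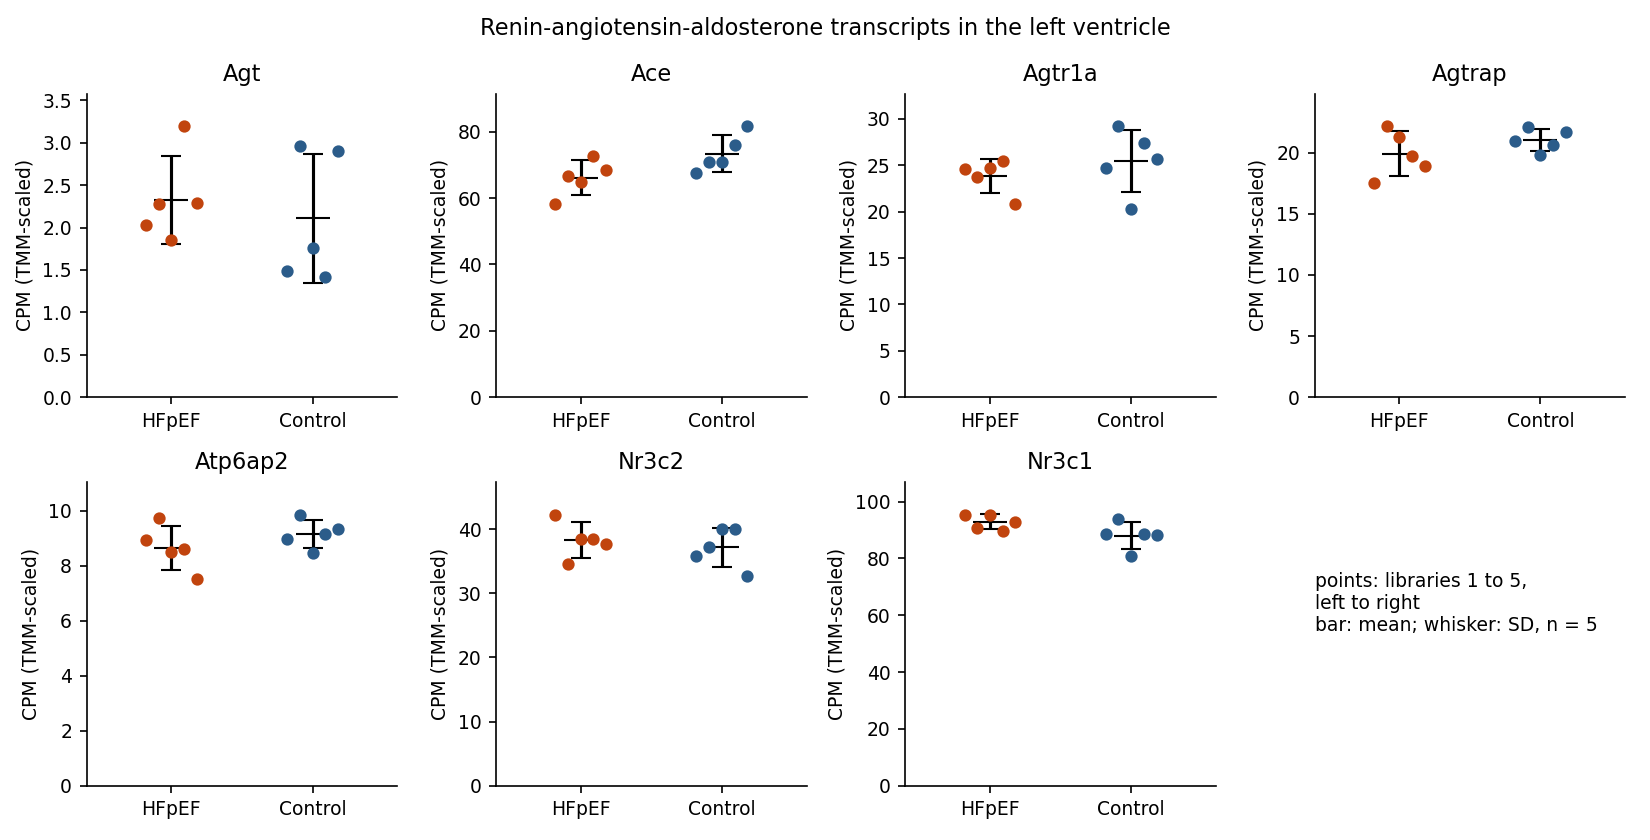
CPM (counts scaled to library size by TMM) of the 7 genes in each library, with HFpEF left and Control right in every panel; points are libraries 1 to 5, the bar is the mean and the whisker the SD (n = 5). In every panel the ranges of the groups overlap, and Agt, at 1.42 to 3.20 CPM, has the widest spread relative to its mean.

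Agt encodes angiotensinogen, the sole precursor of the angiotensins, which the liver supplies to blood; its gene lies at chr8:124556534-124569706 (mm10, minus strand). On the CPM scale (counts scaled to library size by TMM), HFpEF libraries 1 to 5 held 2.03, 2.27, 1.85, 3.20 and 2.29 CPM, and Control libraries 1 to 5 held 1.49, 2.96, 1.76, 1.42 and 2.91 CPM. HFpEF 4 was the highest library, but Control 2 and Control 5 lay above the other HFpEF libraries. The log2 fold change was 0.13 ± 0.23 (SE; 95% interval -0.36 to 0.62; edgeR adjusted p = 0.797). Agt rested on 365 counts in all in HFpEF and 415 in Control, the fewest of the 7, and its interval, the widest, spans fold changes from 0.781 to 1.54. Leaving out HFpEF 4 alone brought the log2 fold change to -0.0033, and leaving out Control 5 gave 0.30.

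Renin, which makes the first cut in angiotensinogen, was not seen in the ventricle: Ren1 had 0 counts in all 10 libraries. A count of 0 allows up to 3 counts over a group, or 0.0191 CPM in HFpEF and 0.0155 CPM in Control, which covers counting error only.

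Ace encodes angiotensin-converting enzyme, which makes angiotensin II and degrades bradykinin; its gene lies at chr11:105967945-105989964 (plus strand). HFpEF libraries held 58.2, 66.6, 64.8, 72.5 and 68.5 CPM, and Control libraries 67.4, 70.8, 71.0, 76.0 and 81.7 CPM. Each of the 5 HFpEF libraries lay below the Control mean of 73.4 CPM, yet HFpEF 4 and HFpEF 5 exceeded the lowest Control library. The log2 fold change of -0.15 ± 0.06 (SE; 95% interval -0.29 to -0.01) had the smallest p of the 7 genes, 0.0322 by edgeR, and did not pass adjustment (adjusted p = 0.195).

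The 2 deepest libraries, Control 4 and Control 5, were also the highest for Ace. Without them, a choice made after seeing the data, the log2 fold change of Ace was -0.07 (edgeR adjusted p = 0.587). Leaving out the 2 highest Control libraries had to move a negative value towards 0, so this cannot test the part of depth. Of the endothelial markers, 2 of 12 were called lower (Egfl7 and Emcn, a secreted and a membrane glycoprotein of endothelium) and 0 higher. That is 16.7% beside 5.33% of all genes tested (2.09% lower). Of the 12 markers, 5 were above 0 and 7 below, with a median log2 fold change of -0.09 beside -0.01. Their summed level was 1366 to 1564 CPM in HFpEF and 1427 to 1686 CPM in Control, and its part in the Ace value was not tested. In bulk tissue, fewer cells of a type and less RNA per cell cannot be told apart. The antisense gene Gm11651 overlaps 5.58% of the exonic bases of Ace, and without known strand reads from there cannot be assigned.

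Agtr1a encodes the AT1a receptor, the main AT1 receptor of mouse heart and vessels; its gene lies at chr13:30336441-30382867 (plus strand). HFpEF libraries held 24.6, 23.7, 24.7, 25.4 and 20.8 CPM, and Control libraries 24.7, 29.2, 20.3, 27.4 and 25.7 CPM. All 5 HFpEF libraries lay below the Control mean of 25.5 CPM, HFpEF 5 farthest, but the lowest library of all was Control 3. HFpEF over Control gave a log2 fold change of -0.10 ± 0.08 (SE; 95% interval -0.28 to 0.09; edgeR adjusted p = 0.579). Control values spread more, with a mean of 25.5 ± 3.37 CPM beside 23.9 ± 1.81 CPM in HFpEF (SD, n = 5 each). The paralogue Agtr1b had 0 counts in every library, so no counts were divided between the paralogues in the deposited values. Agtr2, the AT2 receptor, had 2 counts in all in HFpEF and 2 in Control, below the number that allows a comparison.

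Markers of mural cells and fibroblasts, both known for AT1 receptors, gave no call. Of the pericyte and smooth muscle markers, 0 of 12 passed the test by edgeR and 1 had an unadjusted p under 0.05. Of these markers 10 were above 0 and 2 below, with a median log2 fold change of 0.14 beside -0.01 over all genes tested. Their summed level was 1219 to 1318 CPM in HFpEF and 1150 to 1309 CPM in Control. Of the fibroblast markers, 0 of 12 passed and 2 had an unadjusted p under 0.05, with summed levels of 1021 to 1106 CPM in HFpEF and 924 to 1128 CPM in Control. Of the cardiomyocyte markers, 1 of 10 was lower (Tnnt2, cardiac troponin T) and 0 were higher, or 10% beside 5.33% of all genes tested (2.09% lower). Of these 10 markers, 5 were above 0 and 5 below, with a median log2 fold change of 0.00. The part of these cells in the Agtr1a value was not tested.

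Agtrap encodes the AT1 receptor-associated protein, which binds the receptor's tail and promotes its internalisation; its gene lies at chr4:148077061-148088031 (minus strand). HFpEF libraries held 17.5, 22.2, 21.3, 19.8 and 18.9 CPM, and Control libraries 20.97, 22.1, 19.8, 20.7 and 21.7 CPM. The HFpEF range enclosed that of Control on both sides. For Agtrap the log2 fold change was -0.08 ± 0.06 (SE; 95% interval -0.22 to 0.06; edgeR adjusted p = 0.527). Set against its partner within each library, the ratio of Agtr1a to Agtrap counts per kilobase of exon was 1.83 ± 0.21 in HFpEF and 1.83 ± 0.19 in Control (SD, n = 5 each). The size of this ratio depends on the exon lengths used, but its log2 difference between groups does not. The difference of the mean log2 ratios was -0.00, and an exact two-sided permutation test over the libraries gave p = 0.968, also after adjustment over the 3 ratios computed.

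Atp6ap2 encodes the (pro)renin receptor, which binds renin and prorenin and is also an accessory subunit of the vacuolar proton pump; its gene lies at chrX:12587801-12617049 (plus strand). HFpEF libraries held 8.95, 9.72, 8.5, 8.63 and 7.51 CPM, and Control libraries 8.96, 9.86, 8.45, 9.15 and 9.34 CPM. Apart from HFpEF 5, the lowest, the libraries of both groups covered nearly the same range. This gave a log2 fold change of -0.08 ± 0.07 (SE; 95% interval -0.24 to 0.08; edgeR adjusted p = 0.594). The other subunits of the vacuolar pump gave no call either: 0 of 18 passed by edgeR, 0 by DESeq2 and 0 by limma voom, 3 had an unadjusted p under 0.05, and the median log2 fold change was 0.00. The smallest p among them belonged to Atp6v1d, a subunit of the pump's central stalk, at -0.17 ± 0.06 (SE, edgeR adjusted p = 0.0984). The subunit with the highest CPM, Atp6ap1, was at 0.05 ± 0.04 (SE, edgeR adjusted p = 0.586). Because Atp6ap2 is X-linked and the labels give no sex, the Y-linked Ddx3y is given, a gene chosen after its values were seen. Ddx3y averaged 55.0 CPM in HFpEF and 56.4 CPM in Control. Group means do not show the sex of each library, and the part of sex in the Atp6ap2 value was not tested.

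Nr3c2 encodes the mineralocorticoid receptor, the target of spironolactone and eplerenone; its gene lies at chr8:76899442-77245012 (plus strand). HFpEF libraries held 42.3, 34.6, 38.5, 38.4 and 37.6 CPM, and Control libraries 35.9, 37.2, 40.01, 39.99 and 32.7 CPM. HFpEF 1 was the highest and Control 5 the lowest, and the remaining 8 libraries mixed. The fold change of Nr3c2 on the log2 scale was 0.04 ± 0.06 (SE; 95% interval -0.09 to 0.18; edgeR adjusted p = 0.761).

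Nr3c1 encodes the glucocorticoid receptor; its gene lies at chr18:39410545-39519421 (minus strand). HFpEF libraries held 95.4, 90.7, 95.4, 89.8 and 92.9 CPM, and Control libraries 88.7, 93.9, 81.0, 88.5 and 88.1 CPM. All 5 HFpEF libraries lay above the Control mean of 88.0 CPM, but Control 2 exceeded 3 of them. The log2 fold change was 0.08 ± 0.05 (SE; 95% interval -0.02 to 0.18; edgeR adjusted p = 0.387). The ratio of Nr3c1 to Nr3c2 counts per kilobase was 2.05 ± 0.12 in HFpEF and 2.01 ± 0.22 in Control (SD, n = 5 each), a difference of 0.03 in mean log2 ratio (exact two-sided permutation test, p = 0.683, adjusted over the 3 ratios 0.968). The size of this ratio also depends on the exon lengths used.

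**Figure D2:**
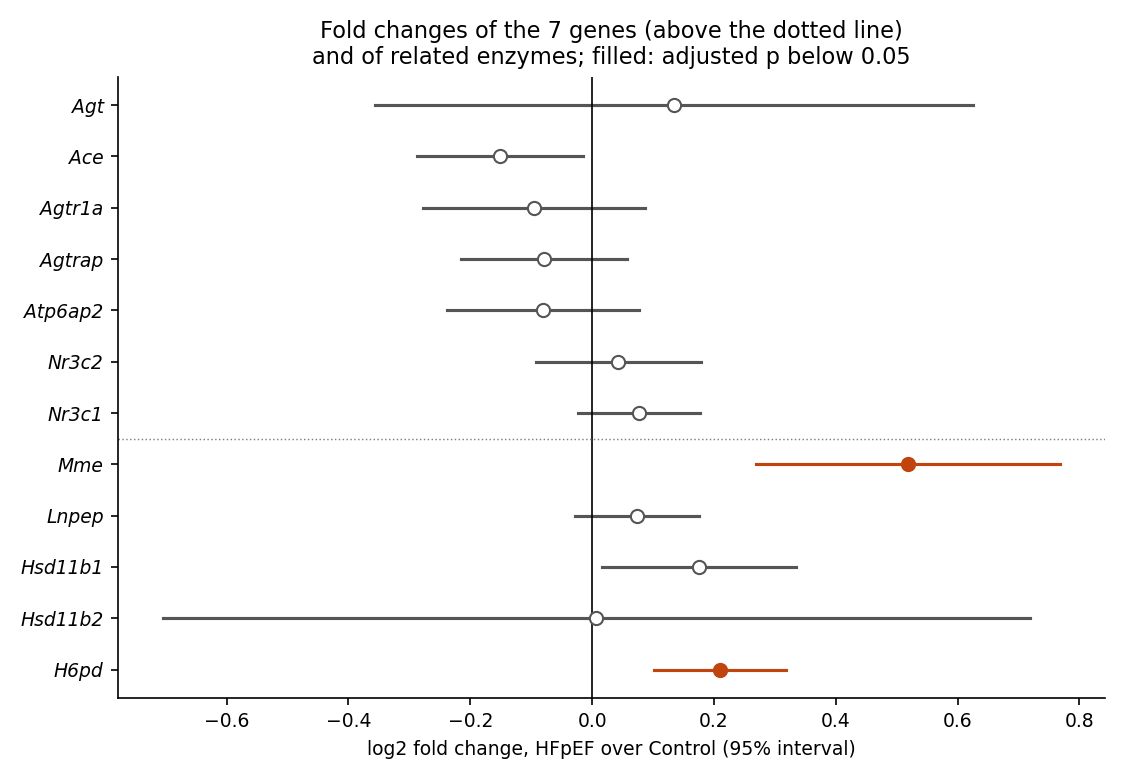
Log2 fold change of HFpEF over Control with its 95% interval for the 7 genes (above the dotted line) and for Mme, Lnpep, Hsd11b1, Hsd11b2 and H6pd; filled red points passed an adjusted p of 0.05 by edgeR. The 7 genes lie between -0.15 and 0.13, and Mme, at 0.52, lies farthest from 0.

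Compared per kilobase of annotated exon, the 7 genes kept the same order of level in both groups. Exon length here merges all annotated exons of a gene and can exceed the length of the transcripts present. The order between genes and their separate ranges depend on it, while comparisons between groups do not. Ace stood first, at 12.5 ± 1.00 CPM per kilobase in HFpEF and 13.9 ± 1.05 in Control (SD, n = 5 each), and Nr3c1 second, at 12.1 ± 0.34 in HFpEF and 11.5 ± 0.60 in Control. Agtr1a followed with 8.56 ± 0.65 in HFpEF and 9.14 ± 1.21 in Control. The mineralocorticoid receptor Nr3c2 was at 5.91 ± 0.42 in HFpEF and 5.74 ± 0.47 in Control. In CPM per kilobase the last places were held by Agtrap (4.71 in HFpEF, 4.97 in Control), Atp6ap2 (3.31 in HFpEF, 3.50 in Control) and Agt (1.23 in HFpEF, 1.11 in Control). Neighbours in this order had separate ranges over the 5 libraries, except Ace and Nr3c1, which overlapped in HFpEF, and Nr3c2 and Agtrap, which overlapped in Control.

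**Figure D3:**
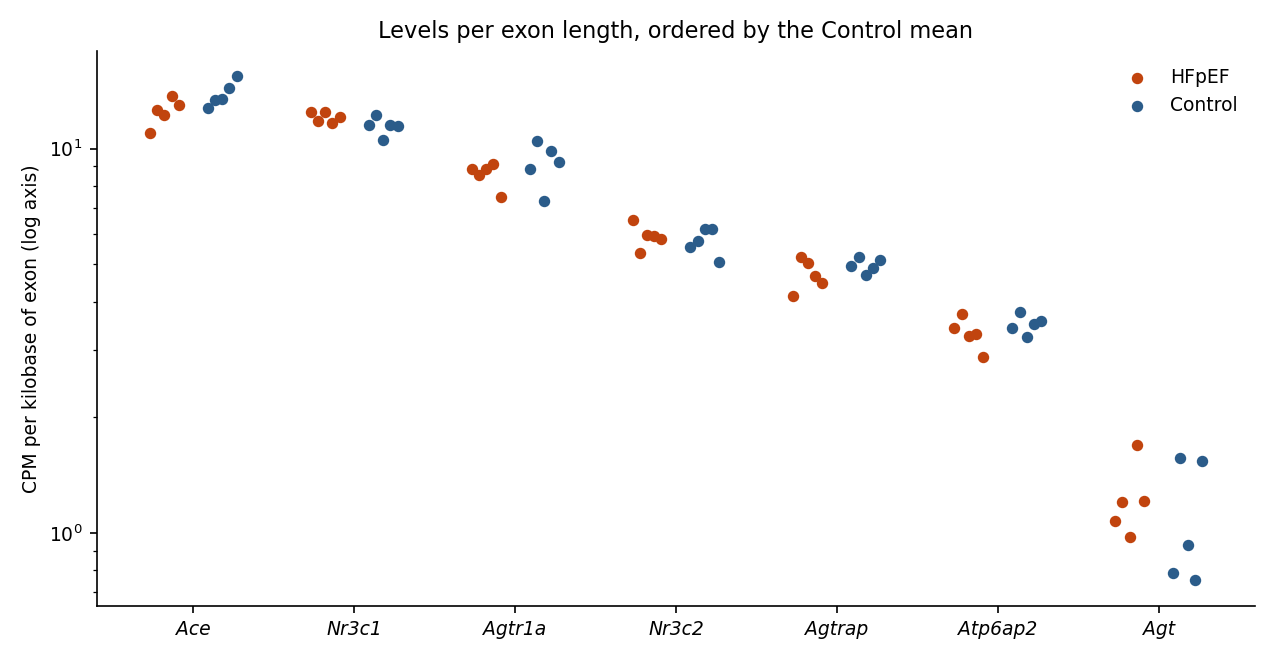
CPM per kilobase of exon on a log axis for the 7 genes, ordered by their Control mean; each point is a library, HFpEF left of Control. The 7 genes run from 13.9 (Ace) to 1.11 (Agt) CPM per kilobase in Control in the same order as in HFpEF. Exon length merges all annotated exons of a gene, so the order between genes depends on it.

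Around the 7 genes, the remaining enzymes and receptors of the angiotensin peptides gave 2 calls among 15 tested of 24 listed, or 13.3% beside 5.33% of all genes tested (3.24% higher and 2.09% lower), with a median log2 fold change of 0.07 beside -0.01. Of these 1 was higher and 1 lower, and the higher was Mme. This list and those below were chosen with earlier results of these data known, so their shares are descriptions only. Mme encodes neprilysin, the peptidase that degrades natriuretic peptides, angiotensins and bradykinin and is the target of sacubitril. Mme held 23.1, 17.3, 16.3, 16.1 and 18.9 CPM in HFpEF libraries, and 12.4, 14.6, 10.6, 14.9 and 11.6 CPM in Control libraries, so the groups did not overlap. Its log2 fold change was 0.52 ± 0.12 (SE; edgeR adjusted p = 0.0212), and the call was lost without HFpEF 5 (0.0504), without Control 1 (0.0569), without both Control 4 and Control 5 (0.0506) and with no filter on low counts (0.0535). Lnpep, the aminopeptidase that binds angiotensin IV, had the highest CPM of the list, not scaled to exon length. Its log2 fold change was 0.07 ± 0.05 (SE, edgeR adjusted p = 0.417).

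Signalling downstream of the AT1 receptor was called in 2 of 33 genes, both higher, which is 6.06% beside 5.33% of all genes tested (3.24% higher), a share near the background; the median was 0.03 beside -0.01. Prkce, a protein kinase C isoform of cardiomyocytes, was at 31.5 ± 2.08 CPM in HFpEF and 25.5 ± 1.02 CPM in Control (SD, n = 5 each; log2 fold change 0.30 ± 0.05, SE; edgeR adjusted p = 0.00427). Arhgef12, a guanine nucleotide exchange factor, rose by 0.18 ± 0.04 on the log2 scale (SE, edgeR adjusted p = 0.0210). It lost its call without HFpEF 3 (0.0562), HFpEF 5 (0.05005) or Control 1 (0.0596), or without both Control 4 and Control 5 (0.0516). The call was also lost with replicate number as a block in the fit (0.0876). Rgs5, a pericyte regulator of G protein signalling and the gene of the list with the highest CPM, was at 0.10 ± 0.05 (SE, edgeR adjusted p = 0.339).

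Genes that make or convert the ligands of Nr3c2 and Nr3c1 were mostly low. Cyp11b2, aldosterone synthase, had 0 counts in HFpEF and 1 in Control. Hsd11b1, which regenerates corticosterone from its inactive form, was at 9.38 ± 0.71 CPM in HFpEF and 8.28 ± 0.67 CPM in Control (SD, n = 5 each), a log2 fold change of 0.18 ± 0.07 that did not pass (SE; edgeR adjusted p = 0.198). Hsd11b2, which inactivates corticosterone and so shields Nr3c2 in kidney, had 50 counts in all in HFpEF and 61 in Control, with a log2 fold change of 0.01 ± 0.33 (SE; adjusted p = 0.994) whose sign changed between scalings. Of the 6 tested of 11 listed, 1 was called (16.7% beside 3.24% of all genes called higher). This was H6pd, which supplies NADPH to Hsd11b1 and rose by 0.21 ± 0.05 (SE; adjusted p = 0.0263), at 38.7 ± 1.67 CPM in HFpEF and 33.4 ± 2.02 CPM in Control (SD, n = 5 each). The H6pd call held in 4 of the 10 fits that left out 1 library and was lost without HFpEF 3, 4 or 5 or Control 1, 2 or 3, with adjusted p of up to 0.0719.

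Known target genes of Nr3c1 and Nr3c2 gave 5 calls among 32 tested, or 15.6% beside 5.33% of all genes. Their median log2 fold change was 0.31 beside -0.01. Because the list was chosen with earlier results of these data known, its share and median are descriptions only. Of the calls 4 were higher, among them Zbtb16, Pik3r1 and Angptl4, and the lower was Mt2. Zbtb16, a zinc finger repressor, held 172, 171, 174, 210 and 225 CPM in HFpEF libraries, and 115, 115, 126, 136 and 135 CPM in Control libraries (log2 fold change 0.61 ± 0.08, SE; edgeR adjusted p = 0.000931). Every HFpEF library exceeded every Control library, and Zbtb16 stayed called in each of the 10 fits that left out 1 library.

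Pik3r1, the regulatory subunit of phosphoinositide 3-kinase, also stayed called in all 10, at 206 ± 23.4 CPM in HFpEF and 157 ± 14.1 CPM in Control (SD, n = 5 each; 0.39 ± 0.08, SE; edgeR adjusted p = 0.0105). Angptl4, an inhibitor of lipoprotein lipase, was at 1.65 ± 0.38 (SE; adjusted p = 0.0417) and stayed called in 2 of the 10 fits, those without HFpEF 1 or HFpEF 4; its adjusted p was up to 0.0856 in the others, and 0.149 without both Control 4 and Control 5, and the call was also lost by limma voom (0.0614) and with no filter (0.0741). Mt2, a metallothionein, fell by 1.63 ± 0.35 (SE; adjusted p = 0.0290), and lost its call without HFpEF 1, 2, 4 or 5 or Control 2, with adjusted p of up to 0.0740, without both Control 4 and Control 5 (0.0695), by limma voom (0.0683) and with no filter (0.0672). The antisense gene Gm45774 overlaps 73.5% of the exonic bases of Mt2. As background, several of these genes also answer to fasting, insulin and fatty acids.

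Chaperones and coregulators of the steroid receptors gave 0 calls of 26 by edgeR and 2 by DESeq2; 3 had an unadjusted p under 0.05, and their median was 0.04. The gene with the highest CPM, the chaperone Hspa8, was at 0.09 ± 0.11 (SE, edgeR adjusted p = 0.692).

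**Figure D4:**
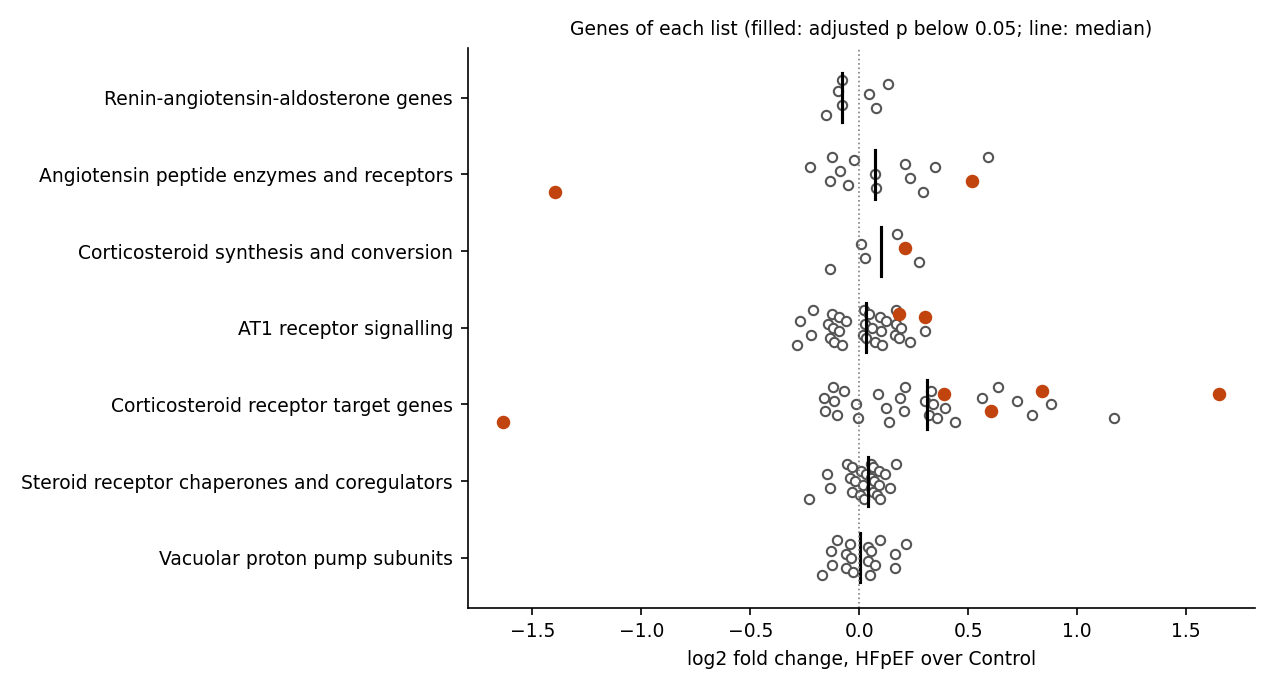
Log2 fold change of HFpEF over Control for each tested gene of the 7 and of the 6 lists around them; filled red points passed an adjusted p of 0.05 by edgeR and the black line is the median of the list. The 7 genes have no filled point and a median of -0.08, and the corticosteroid receptor targets have 5 filled points and a median of 0.31. Members and lists were chosen with earlier results of these data known.

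The genes whose pattern over the 10 libraries was most like that of each member were found by the root mean square difference of z-scored log2 CPM, where 0 is an identical pattern. Ace was nearest to Pomt1 (0.295), Agtrap to Entpd4 (0.297) and Nr3c1 to Kcnj8 (0.321). Nr3c2 was nearest to Map3k5 (0.339), Agtr1a to Rnf150 (0.398), Agt to Ryk (0.429) and Atp6ap2 to Suds3 (0.436). None of these genes was called between the groups, and the values of all genes come from the same libraries, so this likeness is a description only.

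Library totals ran from 31286355 to 33604554 counts in HFpEF and from 31555001 to 46108710 in Control, where Control 4 and Control 5 were the deepest. Mitochondrial transcripts took 43.8% to 46.4% of counts in HFpEF and 40.5% to 45.2% in Control. Cardiomyocyte markers summed to 73193 to 78772 CPM in HFpEF and 71384 to 76148 CPM in Control, and the atrial genes Myl7, Sln and Bmp10 did not pass the filter. Of the macrophage and leukocyte markers 0 of 10 passed by edgeR and 5 had an unadjusted p under 0.05. For scale, the edgeR p of Ace, 0.0322, ranked 3054 among the 18491 genes tested. All 10 markers were below 0, with a median log2 fold change of -0.30 beside -0.01 over all genes tested. Their summed levels were 117 to 147 CPM in HFpEF and 137 to 222 CPM in Control. The part of these cells in the values above was not tested.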

How the data were processed

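The deposited table holds expected counts per gene, whole numbers not scaled to library size; the submitters' processing notes name RSEM 1.2.15, Bowtie2 2.1.0 and the build mm10, without role. Libraries were of total RNA after removal of ribosomal RNA, per the labels' protocols. The annotation release and strand setting are not given in the sources used here. Rounding the counts changed no value, and the 92 ERCC spike-in rows, at 0 counts, were left out. No 2 libraries of a group agreed within sampling noise by chi-square.

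Genes passing edgeR's filterByExpr (minimum count 10) were fitted with edgeR 4.0.16 in R 4.3.3 (TMM scaling, robust quasi-likelihood test, group as sole term, Benjamini-Hochberg adjustment over all genes tested, threshold 0.05). The script was checked on simulated counts. Intervals are 95%. Ratios of counts per kilobase were compared by exact permutation tests. Exon lengths (all annotated exons of a gene merged), coordinates and overlaps came from GENCODE M21 (mm10) by stable identifier, which matched 55144 of 55385 genes. Agt matched another version of its identifier.

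Named genes were the 7 members and the called genes of each list (at most 6) with its gene of highest CPM, not scaled to exon length. Where none was called, that with the smallest p was also named. Agtr1b, Agtr2, Ren1, Hsd11b1, Hsd11b2 and Cyp11b2 were always named. For likeness, genes had a mean log2 CPM of at least 1; the nearest gene of each member is given. Some genes and 1 of the 3 ratios are not reported here, though counts and adjustments include them. The members and lists were chosen with earlier results of these data known. Alternatives were RLE and upper quartile scaling, mitochondrial genes left out, no filter and a stricter filter (CPM of 1 in 5 libraries), DESeq2 1.42.0, limma voom 3.58.1, a replicate block, each library left out, a prior of 5 counts in ratios and, chosen after seeing the data, both Control 4 and Control 5 left out. Adipocyte, mast cell, erythroid and nerve marker lists gave 0 calls by edgeR, with 1, 6, 5 and 6 genes tested and 0, 0, 0 and 4 at an unadjusted p under 0.05. The atrial and conduction list gave 1 higher (Hcn4) and 1 lower (Nppa) of 5, or 40% beside 5.33% of all genes tested. Of the cardiomyocyte markers, 1 of 10 was lower (Tnnt2), or 10% beside 2.09% of all genes called lower.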

Additional observations from a re-analysis of the deposited data

Results flagged for a closer look

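Among 58 groups of 5 values examined, 2 had a library far from the other 4, where chance gives about 1 in 20. In HFpEF 1 the CPM of Angptl4 was 23.3, above 7.43 to 11.2 in the other HFpEF libraries. In Control 5 the CPM of Hspa8 was 832, above 570 to 617 in the other Control libraries. None of the 7 renin-angiotensin-aldosterone genes had such a library in either group.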

How the results depend on the processing

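None of the 7 genes was called under any of the 19 alternatives, where each adjusted p stayed above 0.05. The direction changed only for Agt, at -0.0033 without HFpEF 4 (up to 0.30 without Control 5). Agtr2, Cyp11b2, Ren1 and Agtr1b had too few counts to be tested. Calls over all genes numbered 985, 1408 by DESeq2, 744 with the replicate block, and 554 (without HFpEF 3) to 1101 (without HFpEF 1) when 1 library was left out; higher calls were 60.8% of calls with TMM scaling and 53.9% with upper quartile scaling. No pairing by replicate number was seen: same-numbered deviations correlated at -0.11 to 0.06, and 1 of 5 HFpEF libraries correlated best with its own number. With so few pairs this cannot exclude a shared batch. Calls per list with 1 library left out were 1 to 2 (peptide enzymes and receptors), 0 to 1 (steroid synthesis), 1 to 2 (AT1 signalling), 3 to 7 (receptor targets), 0 to 1 (chaperones) and 0 to 1 (vacuolar pump). Peptide enzymes gave 1 call with no filter and 1 without Control 4 and Control 5. AT1 signalling gave 4 by DESeq2 and 1 with the replicate block, where Arhgef12 was not called (edgeR adjusted p = 0.0876). Receptor targets gave 3 with no filter, 9 by DESeq2, 3 by limma voom and 10 with the replicate block. Over all genes, calls numbered 1009 of 35413 with no filter. Of 18491 genes, 1408 were called by DESeq2, 952 by limma voom and 744 with the replicate block. Chaperones gave 1 with the stricter filter, 2 by DESeq2 and 1 without Control 4 and Control 5. The log2 fold change of Hsd11b2 was -0.0052 with upper quartile scaling, -0.046 by limma voom, -0.14 without Control 4 and Control 5, and -0.20 to 0.20 with 1 library left out. The log2 ratio of Nr3c1 to Nr3c2 differed by -0.023 to 0.080 with 1 library left out, and that of Agtr1a to Agtrap by -0.061 to 0.038, and 0.038 without Control 4 and Control 5. The causes were not tested.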
